A study of Mus musculus with 38 samples.

Results

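The genes described here are the classical guidance families of mouse oligodendrocyte precursor cells (OPCs), the dividing glial cells that mature into myelinating oligodendrocytes. They were taken from the count table by symbol: every protein-coding gene named as a class 3 to 7 semaphorin, plexin, neuropilin, ephrin, Eph receptor, netrin, Unc5 or Dcc receptor, Slit or Robo. The rule found 70 of the 54532 genes in the table. It used no measured value. It also took in Unc50 and Unc5cl, which share letters with the netrin receptors but are not known as such. Unc50 encodes a membrane protein of the Golgi, and both are included in the counts of 70 and 69 below.

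The study asked what BMAL1, a transcription factor at the centre of the circadian clock, does in OPCs. KO mice were NG2::Cre+;Bmal1fl/fl and WT mice were NG2::Cre-;Bmal1fl/fl, so both genotypes carried the floxed alleles and the KO mice alone carried Cre. Cre was driven by the promoter of NG2 (Cspg4), which is also active in pericytes, and removes the part of Bmal1 encoding the DNA-binding domain. Loss of BMAL1 and an effect of the transgene itself cannot be told apart, since no Cre carriers with intact Bmal1 were among the groups. Forebrain cells came from mice of postnatal days 6 to 7, pooled 2 per library, and were immunopanned to remove microglia and endothelial cells and to keep cells that bind an antibody against PDGFRA. Time is given as zeitgeber time (ZT, hours after lights on), and the KO groups held 4 libraries at ZT0, 7 at ZT6, 4 at ZT12 and 4 at ZT18. The WT groups held 4, 5, 6 and 4 libraries at these times. ZT12 is lights off in this cycle of 12 h light and 12 h dark.

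Guidance ligands tell a migrating cell or growing axon where to go. Semaphorins signal through plexins, with neuropilins as co-receptors for most of the secreted class 3 members. Ephrins are membrane-bound and signal through Eph receptor tyrosine kinases, in both directions across a cell contact. Netrins attract through DCC and repel through UNC5 receptors, and Slits repel through Robo receptors. In the oligodendrocyte lineage such cues are known to steer precursors as they leave their zones of origin, and some are also known to bear on differentiation.

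BMAL1, paired with CLOCK, binds the E-box CACGTG, so the promoters of the guidance genes were searched for it in 300-base windows that run from 250 bases before to 50 bases after each RefSeq transcription start on GRCm38.p6. Entries matched 60 of the 70 genes, with 76 windows, and the 10 genes without an entry were Efnb3, Ntn1, Dcc, Unc5d, Plxna1, Plxna4, Sema6a, Sema3f, Sema3b and Slit1. CACGTG, searched on both strands, lay in 5 of the 76 windows, or 6.58%, against 7.84% of 21262 windows of protein-coding genes of the same length. The cyclic AMP response element TGACGTCA lay in 1 window, or 1.32%, against 2.23% of all windows. The AP-1 motif TGANTCA lay in 3 windows, or 3.95%, against 6.99% of all windows. None of these 3 motifs holds another in its letters. A match is a run of letters in this window and not a measured binding site.

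The 4 guidance promoters below hold the E-box at a start that lies within the gene as the count table gives it, and are shown because CACGTG is the site BMAL1 is known for. Each is written 5′ to 3′ on the strand of its gene, with CACGTG in capitals. Robo2 held the fifth match, at a RefSeq start far upstream of the start in the table, and is not shown.
Sema6d, chr2:124089719-124090018, + strand: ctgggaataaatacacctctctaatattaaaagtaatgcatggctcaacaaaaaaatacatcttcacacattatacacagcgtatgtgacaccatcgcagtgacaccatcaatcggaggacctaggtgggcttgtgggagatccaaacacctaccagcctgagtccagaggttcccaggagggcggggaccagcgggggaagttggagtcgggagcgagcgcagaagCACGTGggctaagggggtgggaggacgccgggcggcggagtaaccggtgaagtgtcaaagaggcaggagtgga
Sema4b, chr7:80198338-80198637, + strand: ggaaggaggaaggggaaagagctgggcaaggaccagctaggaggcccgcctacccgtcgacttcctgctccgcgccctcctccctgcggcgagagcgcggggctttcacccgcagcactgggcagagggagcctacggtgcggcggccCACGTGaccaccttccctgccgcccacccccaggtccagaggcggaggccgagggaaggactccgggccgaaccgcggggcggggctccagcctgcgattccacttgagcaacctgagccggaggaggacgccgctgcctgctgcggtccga
Sema3e, chr5:14025026-14025325, + strand: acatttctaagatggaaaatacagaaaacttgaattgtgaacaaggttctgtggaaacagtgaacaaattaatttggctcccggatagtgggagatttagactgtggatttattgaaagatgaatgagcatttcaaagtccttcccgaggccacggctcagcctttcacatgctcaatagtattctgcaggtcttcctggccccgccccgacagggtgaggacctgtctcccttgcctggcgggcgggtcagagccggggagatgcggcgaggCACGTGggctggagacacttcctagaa
Epha8, chr4:136956767-136957066, - strand: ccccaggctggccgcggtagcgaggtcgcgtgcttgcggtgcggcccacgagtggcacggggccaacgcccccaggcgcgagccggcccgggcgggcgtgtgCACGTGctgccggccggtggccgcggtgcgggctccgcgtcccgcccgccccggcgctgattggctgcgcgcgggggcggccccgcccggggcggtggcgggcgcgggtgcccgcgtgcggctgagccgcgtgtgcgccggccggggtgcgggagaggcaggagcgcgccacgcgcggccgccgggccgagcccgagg
Counting the RefSeq start as position 1, the E-box begins at -23 in Sema6d, -102 in Sema4b, 24 in Sema3e and -148 in Epha8. The windows of Sema6d, Sema3e and Epha8 are placed at the start of the gene in the table, and that of Sema4b at a start 11747 bases inside it. None of these 4 genes passed the test between KO and WT in any comparison below.

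The next 4 promoters belong to genes that did pass a test between KO and WT at a single time. CACGTG is in none of them, so they hold no capitals. With CACGTG in 7.84% of all windows, its absence from so few is uninformative. Whether the motif bears on these calls was not tested, and Ntn1, which also passed, had no entry. The windows of Efna3 and Sema4g, which also passed, are not printed and hold none of the 3 motifs. Sema6b has a second window 6491 bases inside the gene, not printed, with an AP-1 match at -48.
Sema6b, chr17:56140294-56140593, - strand: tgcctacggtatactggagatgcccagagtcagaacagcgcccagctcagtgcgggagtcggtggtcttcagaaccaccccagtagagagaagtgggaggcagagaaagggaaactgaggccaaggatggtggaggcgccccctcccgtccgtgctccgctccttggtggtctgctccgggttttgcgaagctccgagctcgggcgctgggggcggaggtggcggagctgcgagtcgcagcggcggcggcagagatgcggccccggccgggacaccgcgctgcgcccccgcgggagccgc
Sema7a, chr9:57939862-57940161, + strand: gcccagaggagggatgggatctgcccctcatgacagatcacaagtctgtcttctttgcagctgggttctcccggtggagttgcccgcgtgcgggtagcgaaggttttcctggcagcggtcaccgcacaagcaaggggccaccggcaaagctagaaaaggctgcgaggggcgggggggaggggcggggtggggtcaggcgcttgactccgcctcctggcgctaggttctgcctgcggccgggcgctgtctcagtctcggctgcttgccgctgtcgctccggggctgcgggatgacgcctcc
Sema5a, chr15:32244563-32244862, + strand: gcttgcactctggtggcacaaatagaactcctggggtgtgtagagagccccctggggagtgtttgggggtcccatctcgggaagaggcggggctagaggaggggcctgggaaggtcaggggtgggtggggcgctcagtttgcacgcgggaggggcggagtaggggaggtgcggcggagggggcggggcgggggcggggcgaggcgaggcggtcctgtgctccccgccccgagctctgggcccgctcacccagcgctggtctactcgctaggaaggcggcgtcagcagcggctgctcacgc
Ephb6, chr6:41605261-41605560, + strand: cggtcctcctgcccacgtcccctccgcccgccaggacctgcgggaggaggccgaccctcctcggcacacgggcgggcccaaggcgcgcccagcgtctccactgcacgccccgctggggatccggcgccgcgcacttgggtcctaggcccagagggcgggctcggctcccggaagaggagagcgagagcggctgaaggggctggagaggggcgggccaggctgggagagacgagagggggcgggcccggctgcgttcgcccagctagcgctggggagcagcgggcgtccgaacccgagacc
The printed windows ranged from 50.7% G and C in Sema3e to 84.3% in Epha8.

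Bmal1 itself (Arntl in the table), counted over the whole gene, does not check the deletion of 1 part of it: it ranged from 17.7 to 23.4 CPM over KO libraries and from 19.3 to 33.2 CPM over WT libraries, and the genotypes overlapped. Libraries held 19.4 to 39.0 M (mega) counts, the median being 25.9 M, and the 70 guidance genes took 0.3557 to 0.5019% of them. OPC markers were high in every library, with Pdgfra at 2975 to 5106 and Olig1 at 1393 to 2694 counts per 1 M counts (CPM). Markers of other cells were present as well: Csf1r, a receptor of microglia, lay between 1035 and 4591 CPM, and the 20 microglia markers were above 0 in all libraries. Of 20 neuron markers none was at 0, while of 20 endothelial markers 3 were at 0 in at least 1 library, namely Ly6c1 in 5, Emcn in 1 and Sox17 in 1. Opalin, a marker of mature oligodendrocytes, was at 0 in 31 of the 38 libraries. A share of ribosomal RNA below 0.3% set 8 libraries apart, at 0.0848 to 0.263% against 0.409 to 1.34% in the other 30. These low-rRNA libraries were all 4 of KO ZT18, replicate 7 of KO ZT6 and replicates 4, 5 and 6 of WT ZT12. RNA of 1 sex alone was seen in 13 libraries, among them none of KO ZT12 and 4 of WT ZT12, although the design states that each pool joined mice of both sexes. Female alone (Y-linked RNA at 0 CPM) were these 4, WT ZT0 replicate 1, WT ZT6 replicate 2 and KO ZT0 replicate 1. Male alone (Xist below 20 CPM) were KO ZT6 replicates 1, 5 and 6, KO ZT18 replicate 1 and WT ZT18 replicates 2 and 4. In bulk samples, fewer cells of a type and less RNA per cell cannot be told apart, which holds for every level below.

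Of the 70 guidance genes, 69 passed the filter on low counts and the other, Ntn5, had 90 counts over all 38 libraries. Per length, 50 of the 70, or 71.4%, had a mean above 1 read per kb per 1 M counts (RPKM), against 78.2% of 15825 protein-coding genes tested, and the median over the 70 was 5.58 RPKM, against 5.79 RPKM over those genes. The ranges below are over all 38 libraries, both genotypes and all times.

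Among the ligands, the semaphorins were the broadest family, with 15 of 20 above 1 RPKM. Sema5b led with 27.2 ± 3.87 RPKM (SD, n = 38), Sema5a, a transmembrane semaphorin with thrombospondin repeats, followed with 21.8 ± 3.58 RPKM, and Sema6d, a transmembrane ligand of class A plexins, had 18.9 ± 2.22 RPKM. The ranges of Sema5b (18.5 to 36.3 RPKM) and Sema5a (12.3 to 28.3 RPKM) overlapped, as did those of Sema5a and Sema6d (13.1 to 23.9 RPKM). Of the secreted class 3 semaphorins, Sema3d stood at 9.58 RPKM and the next, Sema3c, at 1.17 RPKM, with no overlap between the lowest Sema3d library (6.89 RPKM) and the highest Sema3c library (3.04 RPKM). Netrin-1, Ntn1, the best known chemoattractant of commissural axons, matched the top semaphorins at 27.2 ± 4.52 RPKM, and Ntn4 reached 5.69 ± 0.943 RPKM. Ephrins were led by Efnb3 at 19.8 ± 3.94 RPKM, Efna2 at 11 ± 1.59 RPKM and Efnb1 at 8.17 ± 1.99 RPKM. Slit1 at 4.61 ± 1.30 RPKM was the highest Slit, with Slit2 at 1.02 ± 0.180 and Slit3 at 0.363 ± 0.186 RPKM.

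Among the receptors, all 9 plexins were above 1 RPKM. Plxnb2, a receptor of class 4 semaphorins, had the highest level of the 70 genes, at 99.8 ± 19.1 RPKM, which is above 98.1% of the protein-coding genes tested. Plxnb1 (25.0 ± 3.84 RPKM) and Plxna3 (15.2 ± 2.30 RPKM) came next in the family. The lowest Plxnb2 library, at 60.2 RPKM, lay above the highest Plxnb1 library, at 35.03 RPKM. Summed over members, the plexins reached 192.008 RPKM and the semaphorins 190.502 RPKM. The neuropilins Nrp1 and Nrp2 had 10.8 ± 2.56 and 5.60 ± 0.527 RPKM. Of 14 Eph receptors 7 were above 1 RPKM, led by Ephb6, a member without kinase activity, at 13.5 ± 2.22 RPKM, Ephb3 at 10.4 ± 1.53 RPKM and Epha4 at 7.43 ± 1.17 RPKM. The netrin receptors Unc5a, Dcc and Unc5c had 8.79 ± 1.56, 5.92 ± 1.23 and 3.98 ± 0.603 RPKM. Robo1 had 6.98 ± 0.990 RPKM and Robo2 2.33 ± 0.876 RPKM, while Robo4, known from endothelium, and Robo3 stayed at 0.259 ± 0.152 and 0.119 ± 0.131 RPKM. Unc50 had 23.9 ± 3.30 RPKM and Unc5cl 0.0903 ± 0.0715 RPKM.

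**Figure D1:**
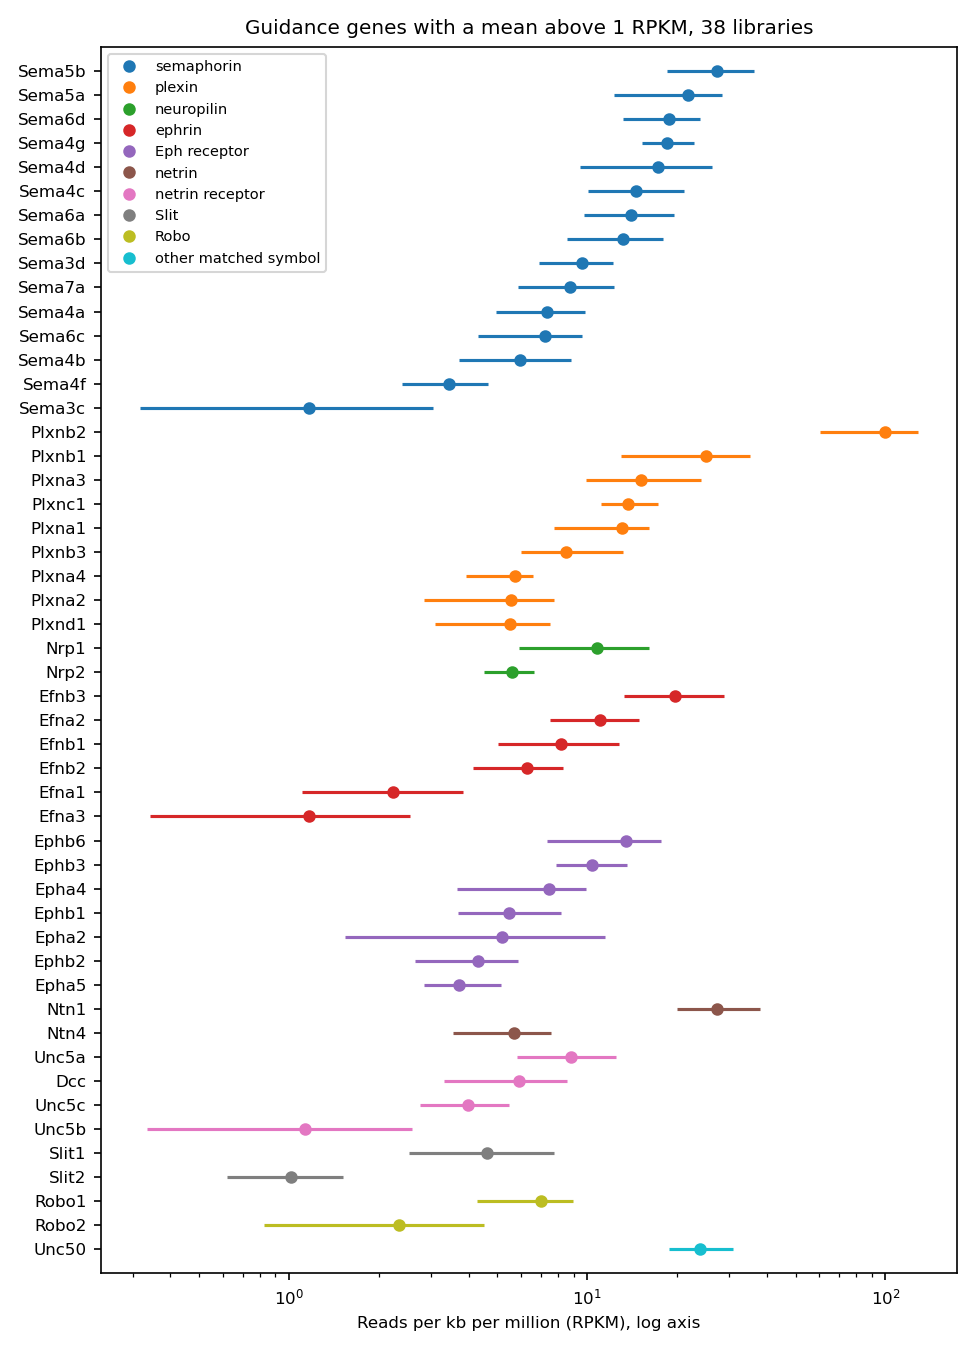
Mean RPKM (log axis) of the 50 guidance genes with a mean above 1 RPKM, coloured by family and ordered by level within each. Points are means and lines run from the lowest to the highest of 38 libraries; Plxnb2, at 99.8 RPKM, stands right of every other gene.

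The spread over libraries was not the same for all genes. Nrp2, Sema4g and Plxna4 varied least among the 50 genes above 1 RPKM, with coefficients of variation of 9.41, 10 and 10.2% over the 38 libraries. Sema3c (51.6%), Efna3 (44.4%) and Epha2 (44.2%) varied most among those genes. Some counts sit on overlapping genes, and the strand setting of the counting is not given in the sources used here. Zyx, which overlaps Epha1 on the other strand, held 6330% of the count of Epha1, and Hk3 held 197% of the count of Unc5a. The pseudogene Hmgn2-ps1 held 33.0% of the count of Epha5 and the antisense gene 4731419I09Rik 39.1% of that of Efna4. Zan held 12.8% of the count of Ephb4, Gm9017 6.32% of that of Epha6 and Gm15998 5.14% of that of Efna3. Overlap here is of whole gene spans and not of exons. These shares compare total counts and do not measure reads given to the wrong gene. The values of these genes are uncertain to a degree that was not tested.

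Averaged over the 4 times, none of the 69 genes tested passed the threshold between KO and WT, a false discovery rate of 0.05 over all 22798 genes tested (quasi-likelihood test of edgeR, Benjamini-Hochberg adjusted). Over all genes, 0.0921% were called. The count at an unadjusted p under 0.05 was 5 of 69, and DESeq2 and limma-voom also called 0. Counts at an unadjusted p, here and below, stand without the share over all genes. They show nothing particular to the genes listed. The smallest p belonged to Plxna3, an X-linked class A plexin. It averaged 112 ± 11.9, 112 ± 19.5, 121 ± 8.33 and 107 ± 9.50 CPM in KO libraries in the order of the 4 times (SD, n = 4, 7, 4 and 4). WT libraries averaged 130 ± 40.8, 125 ± 12.4, 127 ± 4.90 and 128 ± 15.8 CPM (n = 4, 5, 6 and 4). The log2 fold change of Plxna3 was -0.18 with a standard error (SE) of 0.0660 (adjusted p = 0.189). The KO mean was the lower at each of the 4 times, and the groups overlapped at each. Of the 9 plexins 8 had a negative estimate, with a median log2 fold change of -0.06, and all 8 ephrins had a positive one, with a median of 0.12. The median over the 69 was -0.02, as it was over all genes.

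At ZT0 no guidance gene passed the test, while 0.285% of all genes did. At an unadjusted p under 0.05 there were 9 of 69, and DESeq2 and limma-voom called 0. Efna3, an ephrin anchored by glycosylphosphatidylinositol, came closest, with 6.21, 4.11, 5.02 and 2.45 CPM in KO libraries and 1.61, 3.67, 1.86 and 1.38 CPM in WT libraries. The lowest KO library lay under the highest WT library, and the log2 fold change was 1.06 (SE 0.356, adjusted p = 0.106). In 3 genes every KO library at ZT0 lay above every WT library, namely Ntn1, Efna1 and Efna2, and in none did they lie wholly below. Over all genes KO libraries lay wholly above in 2.60% and wholly below in 2.64%. Ntn1 read 205, 172, 190 and 168 CPM in KO libraries and 145, 131, 146 and 164 CPM in WT libraries (log2 fold change 0.33, SE 0.138, adjusted p = 0.190). Without WT ZT0 replicate 4, 3 guidance genes were called at ZT0. Counts over all genes were also unstable there, with 1 to 2208 called over the 38 fits without a library, against 65 with all libraries. At ZT6 no guidance gene was called either, as against 0.0132% of all genes; 2 of 69 had an unadjusted p under 0.05, and DESeq2 and limma-voom called 0. The lowest adjusted p there was 0.974.

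At ZT12, lights off, 6 guidance genes passed and all 6 fell in KO: the semaphorins Sema6b, Sema4g and Sema7a, the ephrin Efna3, the netrin Ntn1 and the receptor Ephb6. They are 8.70% of the 69 tested, where 5.00% of all genes were called, 3.69% lower and 1.31% higher. The median log2 fold change of the 69 was -0.13, against -0.01 over all genes, and 46 of the 69 were negative. DESeq2 called 5 and limma-voom 4, all lower.

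Sema6b, a transmembrane class 6 semaphorin (ENSMUSG00000001227, chromosome 17, 56123085 to 56140343), had 34.0, 49.98, 35.5 and 42.9 CPM in KO libraries at ZT12. WT libraries at ZT12 ranged from 49.8 to 67.7 CPM with a median of 58.9 CPM. A single KO library reached into the WT range, and the log2 fold change was -0.54 (SE 0.120, adjusted p = 0.00786). Sema4g (ENSMUSG00000025207, chromosome 19, 44989101 to 45003397), a transmembrane class 4 semaphorin, had 75.5, 87.9, 74.3 and 87.1 CPM in KO libraries, against 92.4 to 106 CPM with a median of 98.7 CPM in WT libraries. All KO libraries were below all WT libraries by a small step (log2 fold change -0.28, SE 0.0851, adjusted p = 0.0460). Sema7a (ENSMUSG00000038264, chromosome 9, 57940112 to 57962865), the membrane-anchored semaphorin known to act through integrins, had 21.4, 24.7, 24.5 and 24.0 CPM in KO libraries and 28.2 to 39.1 CPM with a median of 31.2 CPM in WT libraries. Again no library overlapped (log2 fold change -0.44, SE 0.133, adjusted p = 0.0469).

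Efna3 (ENSMUSG00000028039, chromosome 3, 89313899 to 89322965) showed the widest gap of the 6, at a low level. It had 0.831, 2.20, 1.73 and 0.865 CPM in KO libraries at ZT12, against 2.26 to 4.78 CPM with a median of 3.11 CPM in WT libraries. The highest KO library was just under the lowest WT library, and the log2 fold change was -1.25 (SE 0.339, adjusted p = 0.0256). Ntn1 (ENSMUSG00000020902, chromosome 11, 68209364 to 68400823) had 126, 143, 131 and 145 CPM in KO libraries and 147 to 234 CPM with a median of 184 CPM in WT libraries. The groups did not overlap (log2 fold change -0.46, SE 0.127, adjusted p = 0.0292). Ephb6 (ENSMUSG00000029869, chromosome 6, 41605482 to 41620509) had 36.9, 48.5, 27.6 and 49.4 CPM in KO libraries, against 43.3 to 67.0 CPM with a median of 57.0 CPM in WT libraries. These groups overlapped (log2 fold change -0.49, SE 0.138, adjusted p = 0.0316). In 5 genes all KO libraries at ZT12 lay under all WT libraries, namely Ntn1, Sema4g, Sema7a, Efna3 and Epha2, and 3.15% of all genes did the same.

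The WT ZT12 group mixed 3 low-rRNA libraries with 3 others, and KO ZT12 held no low-rRNA library. In Sema6b the KO mean of 40.6 CPM stood against 65.0 CPM in the 3 low-rRNA WT libraries and 52.9 CPM in the other 3. Ephb6 had 40.6 CPM in KO, against 63.8 and 50.4 CPM in these WT sets, and Ntn1 136 CPM in KO, against 206 and 169 CPM. In the other 3 genes the WT sets were alike: Sema7a had 23.6 CPM in KO, against 31.8 and 32.3 CPM, Sema4g 81.2 CPM in KO, against 97.2 and 100.3 CPM, and Efna3 1.41 CPM in KO, against 3.19 and 3.57 CPM. Without the 8 low-rRNA libraries no guidance gene was called at ZT12, with log2 fold changes of -0.38 (adjusted p = 0.341) for Sema6b, -0.31 (0.534) for Ephb6, -0.31 (0.482) for Ntn1, -0.45 (0.343) for Sema7a, -0.30 (0.326) for Sema4g and -1.335 (0.242) for Efna3. The 6 calls were also lost with the low-rRNA set as a covariate and in a fit of the ZT12 libraries alone, where all 6 stayed negative.

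Single libraries decided several of these calls. Leaving out 1 library of the 38 at a time lost the call of Sema6b without KO ZT12 replicate 1 or 3 (adjusted p up to 0.0650), and those of Efna3 and Ntn1 in 4 fits each, of Ephb6 in 5, of Sema4g in 19 and of Sema7a in 21. Without KO ZT12 replicate 1 or 3 all 6 calls were lost. No sign changed: over these fits the log2 fold change of Sema6b lay between -0.65 and -0.46, that of Efna3 between -1.55 and -1.07, and that of Ntn1 between -0.52 and -0.39.

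At ZT18 a single guidance gene was called, Sema5a (ENSMUSG00000022231, chromosome 15, 32244810 to 32696341), which fell in KO. That is 1.45% of the 69, where 2.14% of all genes were called and 0.746% were called lower. Sema5a had 345, 269, 308 and 230 CPM in KO libraries at ZT18, against 368, 459, 433 and 427 CPM in WT libraries. Every KO library was below every WT library (log2 fold change -0.55, SE 0.132, adjusted p = 0.0239), and the 4 KO ZT18 libraries were the lowest of all 38. The low-rRNA set and the genotype coincide at ZT18 and cannot be told apart there. Of the low-rRNA libraries in other groups, KO ZT6 replicate 7 read 354 CPM, where KO ZT6 ranged from 353 to 523 CPM. Those of WT ZT12 averaged 368 CPM (353 to 394 CPM), against 395 CPM in the other 3 libraries of that group. The call was lost with the low-rRNA set as a covariate (log2 fold change -0.39, adjusted p = 0.720) and without the single-sex libraries (-0.59, adjusted p = 0.147). It was also lost without WT ZT18 replicate 2, 3 or 4 or KO ZT18 replicate 2 or 4 (adjusted p up to 0.118). In 3 genes, Sema5a, Plxnc1 and Sema3d, all KO libraries at ZT18 were below all WT libraries, and in Sema6b, Efnb1 and Robo4 all were above. Over all genes 8.18% were wholly below and 10.4% wholly above.

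**Figure D2:**
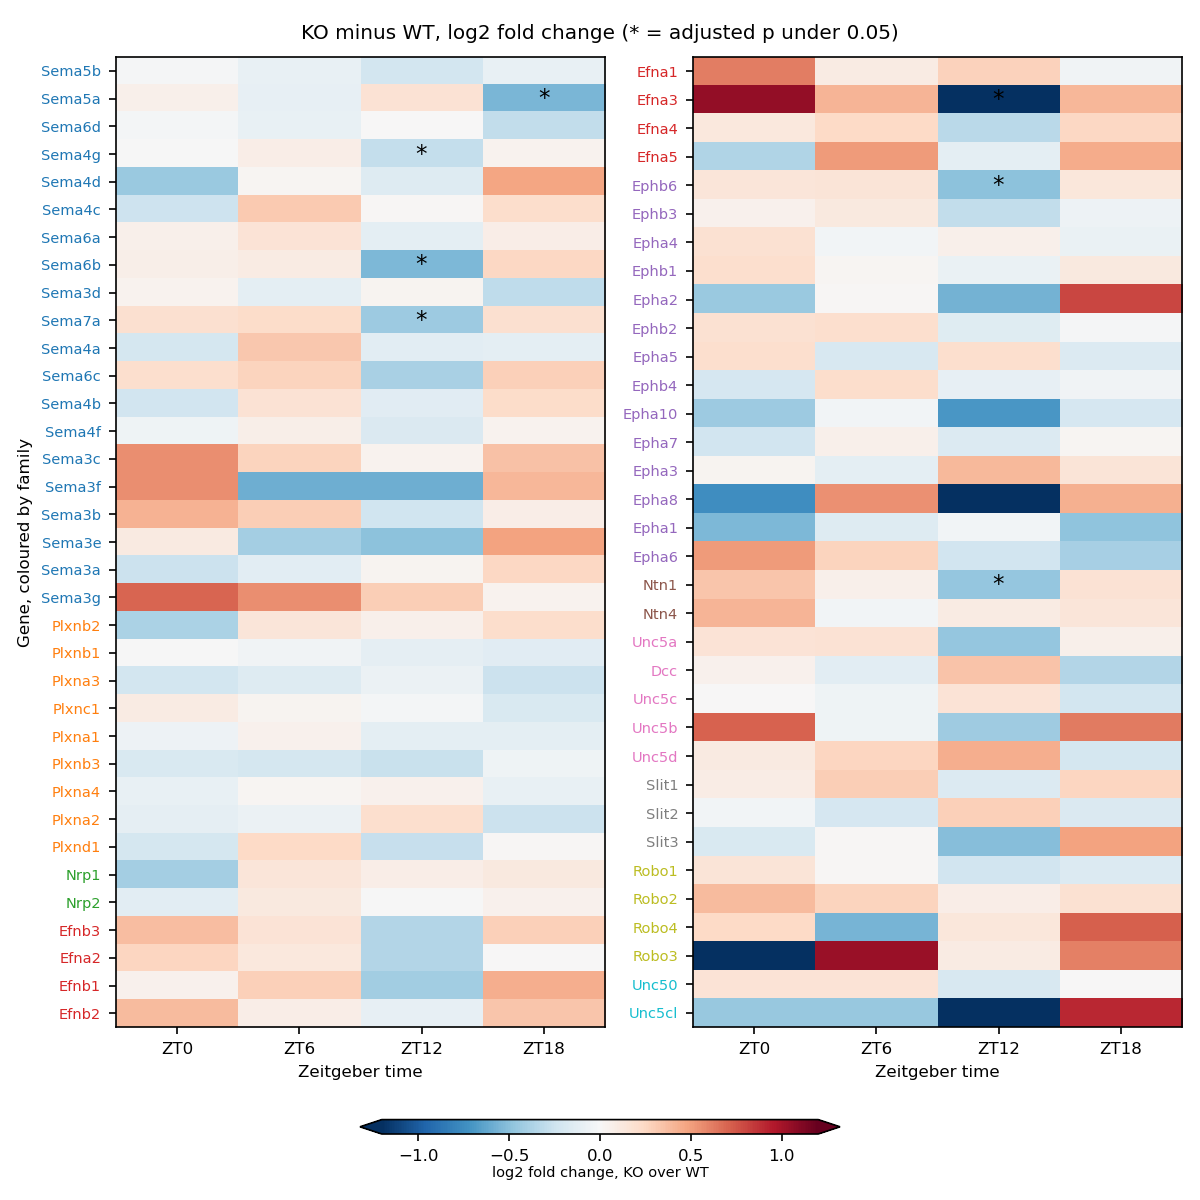
Log2 fold change of KO over WT at ZT0, ZT6, ZT12 and ZT18 for the 69 genes tested, coloured by family, with an asterisk where the adjusted p is under 0.05. The ZT12 column carries 6 asterisks, all on blue (lower in KO), and ZT18 carries 1, on Sema5a. White is no difference and colours saturate beyond the ends of the scale.

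Whether the genotype difference depended on the hour was tested directly. The interaction of genotype and time was called for 7 of the 69, or 10.1%, against 9.19% of all genes. They were Efna3 (adjusted p = 0.00885), Sema6b (0.00894), Ntn1 (0.0180), Efnb3 (0.0242), Sema5a (0.0271), Sema7a (0.0339) and Ephb6 (0.0433). In 6 of them, all but Sema5a, the estimate was positive at ZT0, ZT6 and ZT18 and negative at ZT12. Efna3 gave log2 fold changes of 1.06, 0.40, -1.25 and 0.39 at ZT0, ZT6, ZT12 and ZT18, Sema6b gave 0.07, 0.10, -0.54 and 0.25, and Ntn1 gave 0.33, 0.06, -0.46 and 0.18. Efnb3 (ENSMUSG00000003934, chromosome 11, 69554092 to 69560205), a transmembrane ephrin known in the lineage as a myelin-associated inhibitor, gave 0.37, 0.16, -0.35 and 0.29 and passed at no single time. Sema5a moved in another way, with 0.06, -0.10, 0.18 and -0.55. Without KO ZT12 replicate 1 the count was 1, and without replicate 3 it was 4. Of the 38 fits without a library, the call was lost in 21 for Ephb6 (adjusted p up to 0.167), 7 for Sema7a and 5 for Sema5a. It was lost in 2 for Efnb3, 1 each for Sema6b and Ntn1, and 0 for Efna3. The calls of Ephb6 and Sema7a were also lost with RLE scaling, library size alone and the replicate block. Those of Ntn1 and Efnb3 were lost with library size alone. All 7 were lost with the low-rRNA set as a covariate, and 2 were called without the single-sex libraries. With the mean log2 CPM of neuron markers as a covariate, the interaction calls of Efnb3, Sema7a and Ephb6 were lost.

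**Figure D3:**
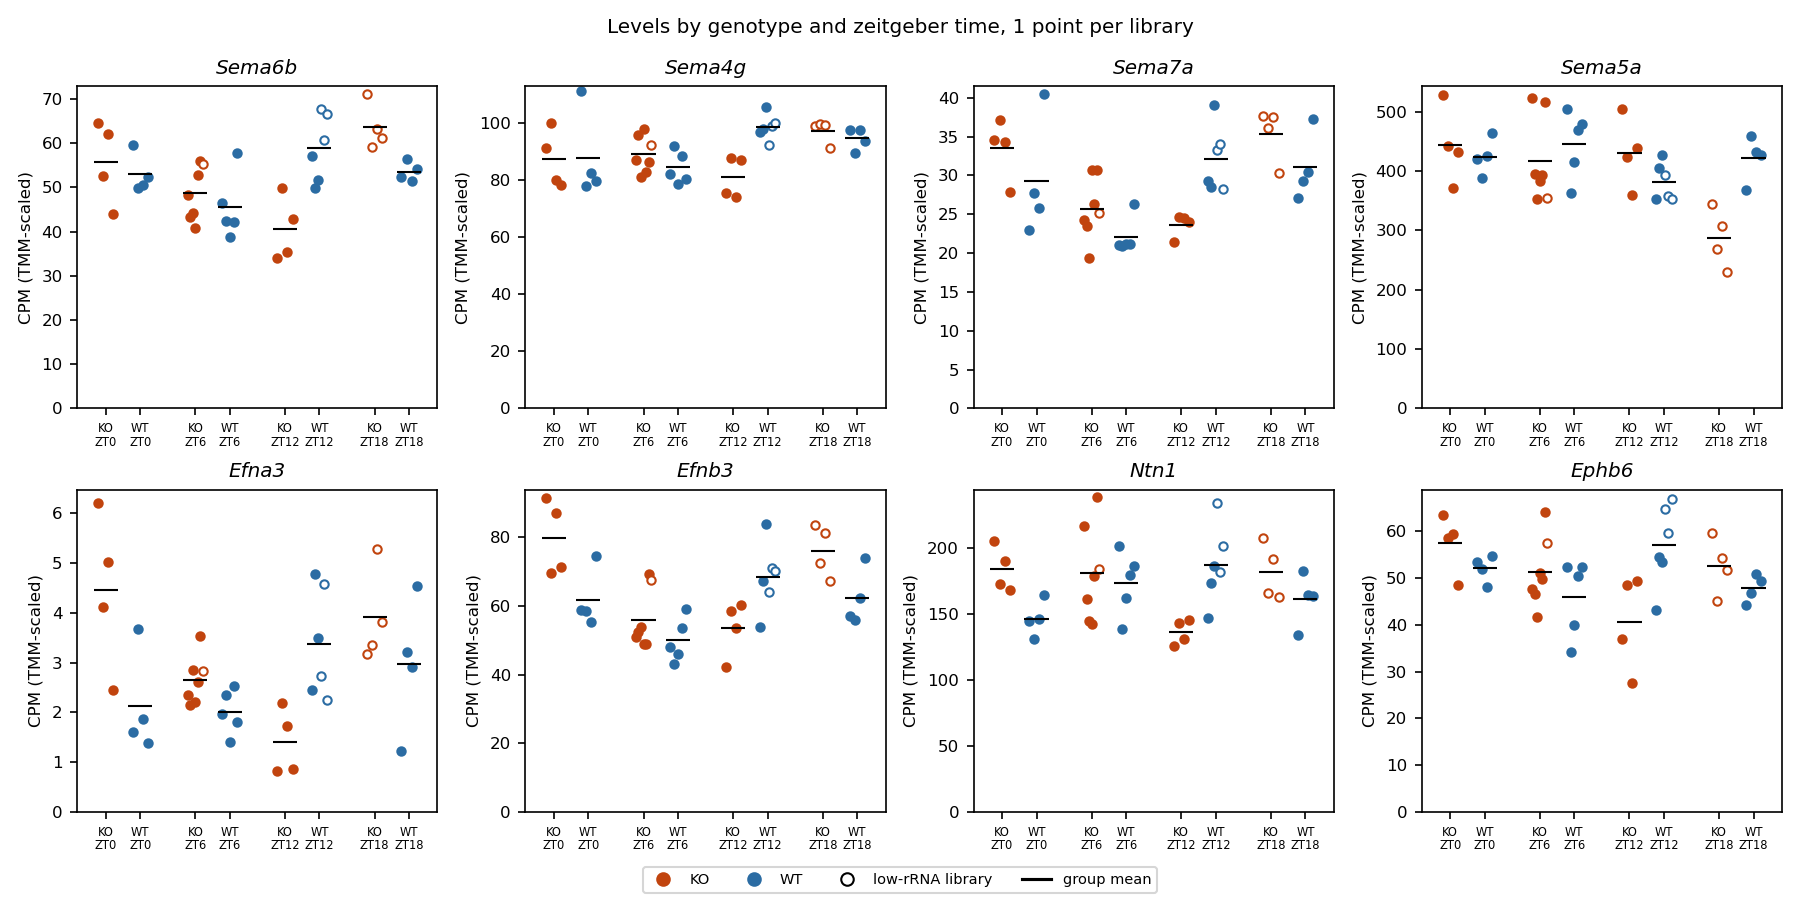
CPM of the 7 genes with a called interaction and of Sema4g in each library, with KO left of WT at each time, bars at group means and open points for low-rRNA libraries. KO points lie low at ZT12 in Sema6b, Sema4g, Sema7a, Efna3, Efnb3, Ntn1 and Ephb6, and at ZT18 in Sema5a, where all 4 KO points are open.

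Time of day within each genotype gave more calls in KO, with 19 of 69 or 27.5%, against 21.9% of all genes. In WT, 3 of 69 or 4.35% were called, against 4.91% of all genes. A call in 1 genotype and not in the other does not show that they differ, and only the 7 genes above passed the test of that difference. The KO calls were 6 semaphorins (Sema4d, Sema6b, Sema5a, Sema7a, Sema4b, Sema3f), 3 ephrins (Efnb3, Efna3, Efnb1), 5 Eph receptors (Epha2, Epha5, Epha3, Epha4 and Epha1, the last with the uncertain count given above), and Plxnb2, Ntn1, Unc5d, Slit1 and Robo2.

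The KO calls did not share 1 pattern over the day. Sema4d, a ligand of Plxnb1 and Plxnb2, averaged 88.3 ± 13.3, 157 ± 25.6, 110 ± 31.2 and 166 ± 17.99 CPM in KO over the 4 times from ZT0 to ZT18 (adjusted p = 9e-04), and 120 ± 28.9, 155 ± 25.3, 123.2 ± 16.8 and 120 ± 32.9 CPM in WT. Epha2, an Eph receptor best known from epithelial cells, averaged 13.5 ± 5.83, 34.5 ± 13.9, 15.8 ± 3.22 and 28.3 ± 5.30 CPM in KO (adjusted p = 0.00169), and 18.4 ± 8.28, 34.0 ± 3.29, 23.4 ± 2.55 and 16.3 ± 7.35 CPM in WT. Both were high at ZT6 and ZT18 in KO. The microglia score was also highest at these times in KO, with a mean log2 CPM of 8.01, 8.88, 8.45 and 8.94 from ZT0 to ZT18, against 8.43, 8.66, 8.51 and 8.46 in WT, and 13 of its 20 markers were called for time in KO. In WT 0 of 20 were called, with 0 at an unadjusted p under 0.05 and 0 by DESeq2 and limma-voom. With the low-rRNA set as a covariate 3 of the 20 markers were called for time in KO. With the microglia score as a covariate both Sema4d and Epha2 were still called for time in KO (adjusted p = 0.00759 for Sema4d and 0.018 for Epha2). The calls of Plxnb2, Epha5, Epha3, Epha4 and Robo2 for time in KO were lost with this covariate. Efnb3 was high at ZT0 and ZT18 in KO, with 80.0 ± 10.99, 56.0 ± 8.66, 53.7 ± 8.16 and 76.2 ± 7.62 CPM in KO (adjusted p = 0.00126), and 61.8 ± 8.64, 50.01 ± 6.48, 68.5 ± 9.74 and 62.4 ± 8.29 CPM in WT. Efnb1, the X-linked ephrin, averaged 27.6 ± 6.00, 26.3 ± 6.08, 23.7 ± 3.36 and 39.9 ± 1.96 CPM in KO (adjusted p = 0.00827), and 26.6 ± 5.61, 21.5 ± 4.34, 31.7 ± 6.52 and 29.5 ± 2.62 CPM in WT. Of the 38 fits without a library, the call for time in KO was lost in 16 for Robo2, 12 for Epha4 and 8 for Ntn1. Every other such call was lost in 5 fits or fewer. With the low-rRNA set as a covariate the KO count was 10, and over all genes it was 2656. Since KO ZT18 consists of low-rRNA libraries, that time and that set cannot be told apart in KO.

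The 3 calls in WT were Slit1 (adjusted p = 0.00244), Sema7a (0.0245) and Unc5d (0.0452), each of them also called in KO. Slit1, a secreted repellent, averaged 26.0 ± 3.02, 22.3 ± 5.92, 31.5 ± 1.74 and 34.3 ± 3.59 CPM in KO from ZT0 to ZT18, and 24.4 ± 5.83, 18.2 ± 1.13, 35.2 ± 6.63 and 28.7 ± 9.78 CPM in WT. ZT6 was its lowest time in both genotypes. In WT no ZT6 library (16.3 to 19.2 CPM) reached the lowest ZT12 library (29.2 CPM). Its call in WT was kept in all 38 fits that left out a library (adjusted p up to 0.0114). Its call in KO was lost in 5 of these fits, with the low-rRNA set as a covariate and without the single-sex libraries. Unc5d, a netrin receptor also bound by FLRT proteins, averaged 8.03 ± 1.26, 4.14 ± 1.71, 9.38 ± 1.67 and 6.55 ± 0.594 CPM in KO, and 7.46 ± 3.72, 3.47 ± 1.02, 6.92 ± 1.49 and 7.58 ± 3.30 CPM in WT, also lowest at ZT6. Neuron markers moved over the same hours: their mean log2 CPM was 5.24, 4.29, 4.69 and 5.47 in KO and 4.96, 4.14, 4.90 and 4.77 in WT, lowest at ZT6 in both, and 15 of 20 were called for time in KO and 3 in WT. Astrocyte markers were also lowest at ZT6, with 6.07, 5.77, 6.41 and 6.69 in KO and 6.14, 5.58, 6.42 and 6.64 in WT, and 13 of 18 were called for time in KO and 12 in WT. The part of astrocyte markers in the time results was not tested. Slit1, Sema7a and Unc5d each rose with neuron markers within groups, as given below. Adding the neuron score as a covariate was an alternative chosen after seeing the data. With it, 13 guidance genes were called for time in KO and 1, Slit1, in WT. Over all genes it gave 3074 calls for time in KO and 567 in WT, against 5001 and 1120 without it. The KO calls lost among guidance genes were those of Efnb3, Sema7a, Efnb1, Slit1, Sema3f and Epha4. Sema7a and Unc5d also lost the WT call when either the low-rRNA or the single-sex libraries were left out. Of the 38 fits without a library, Sema7a lost it in 4 (adjusted p up to 0.0935) and Unc5d in 19 (up to 0.171). The WT call of Unc5d was lost by limma-voom and with the low-rRNA set as a covariate as well.

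Many guidance genes moved with markers of other cells among libraries of the same group. For each of 4 marker lists, the mean log2 CPM of the list was added to the group model as a score, and the slope of each gene on it was tested within groups. Microglia markers ranged from 7.36 to 9.57 log2 CPM over the libraries, against 8.49 to 9.14 for OPC markers, although the protocol panned microglia away. Of the 69 guidance genes 36, or 52.2%, had a called slope on the microglia score, 9 higher and 27 lower, against 22.2% of all genes. The higher share over all genes was 12.6% and the lower share 9.57%.

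The 9 that rose with microglia markers were Plxnb2, Sema4d, Nrp1, Epha2, Sema4c, Unc50 (not a guidance receptor), Sema4a, Sema4b and Nrp2, so both neuropilins and 4 of the class 4 semaphorins. Plxnb2 rose by 0.53 log2 per unit of the score (SE 0.0482, adjusted p = 2.63e-11), or 1.44-fold. Nrp1, the co-receptor of class 3 semaphorins and VEGF, rose by 0.68 (SE 0.0699, adjusted p = 5.34e-10) and Sema4d by 0.56 (SE 0.0551, adjusted p = 1.72e-10). Epha2 had the steepest called slope of the 9, at 0.81 (SE 0.124, adjusted p = 2.95e-06). Plxnb2 spanned 464 CPM in the lowest to 994 CPM in the highest library, both KO, and WT libraries spanned 519 to 985 CPM. The KO and WT ranges overlapped almost wholly.

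The 27 that fell as microglia markers rose included Plxna2 (slope -0.45, SE 0.0626, adjusted p = 4.57e-07), Plxna3 (-0.33), Plxnb1 (-0.34), Plxna1 (-0.22) and Plxnb3 (-0.26) of the plexins, so 5 of 9 against the single rise of Plxnb2. Sema6d (-0.25, SE 0.0469, adjusted p = 9.15e-05), Sema5a (-0.23) and Sema5b (-0.25), the 3 semaphorins with the highest levels, fell too, as did Dcc (-0.39), Unc5a (-0.27) and Unc5c (-0.24) of the netrin receptors, Epha5 (-0.27) and Robo1 (-0.23). Which cells the RNA of these genes came from was not tested. All 12 slopes with the smallest p were called in each of the 38 fits without a library. The steepness of Plxnb2 lay between 0.51 and 0.56 there.

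**Figure D4:**
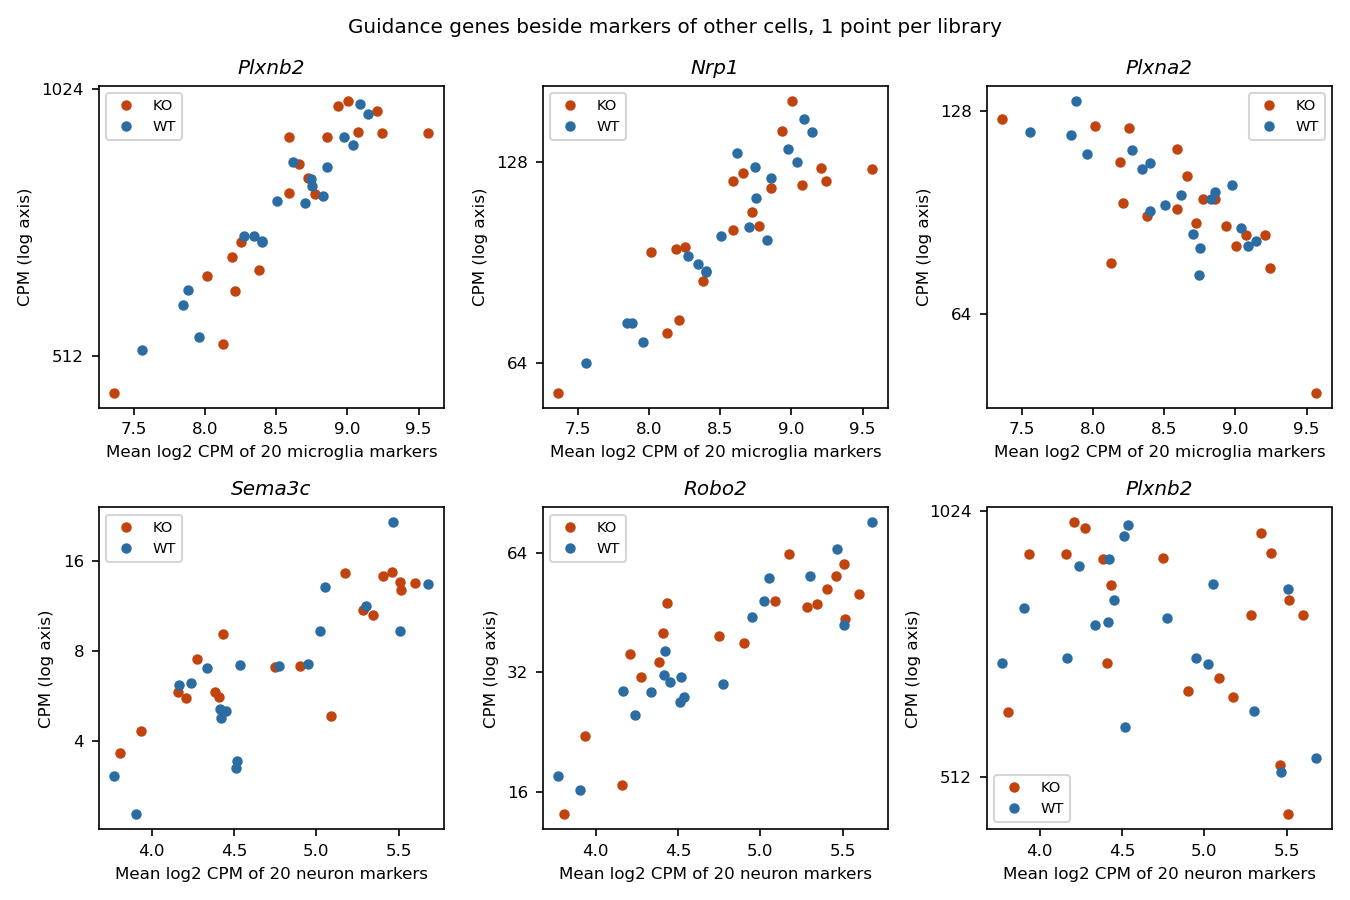
CPM (log axis) of Plxnb2, Nrp1 and Plxna2 beside the mean log2 CPM of 20 microglia markers, and of Sema3c, Robo2 and Plxnb2 beside that of 20 neuron markers, with KO and WT libraries in colour. Plxnb2 and Nrp1 climb and Plxna2 declines along the microglia score in both genotypes, and Sema3c and Robo2 climb along the neuron score.

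On the neuron score 12 of 69, or 17.4%, had a called slope, and all 12 rose, against 3.26% of all genes called and 2.46% called higher. Sema3c, a secreted semaphorin, had a slope of 1.44 (SE 0.148, adjusted p = 1.18e-08), or 2.72-fold per unit. Robo2 had 0.97 (SE 0.103, adjusted p = 2.42e-08), Efna5 1.40 (SE 0.196, adjusted p = 6.57e-06) and Sema3f 1.22 (SE 0.182, adjusted p = 1.74e-05). The other 8 were Epha3 (0.64), Unc5d (0.83), Efnb2 (0.41), Unc5b (0.83), Epha7 (0.69), Sema3a (0.79), Slit1 (0.43) and Sema7a (0.30). Sema3c ranged from 3.63 to 14.7 CPM over KO libraries and from 2.26 to 21.7 CPM over WT libraries. Without WT ZT18 replicate 4 the slopes of Slit1 (adjusted p = 0.0589) and Sema7a were no longer called, and that of Sema7a was also lost without WT ZT12 replicate 3 (up to 0.0594).

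**Figure D5:**
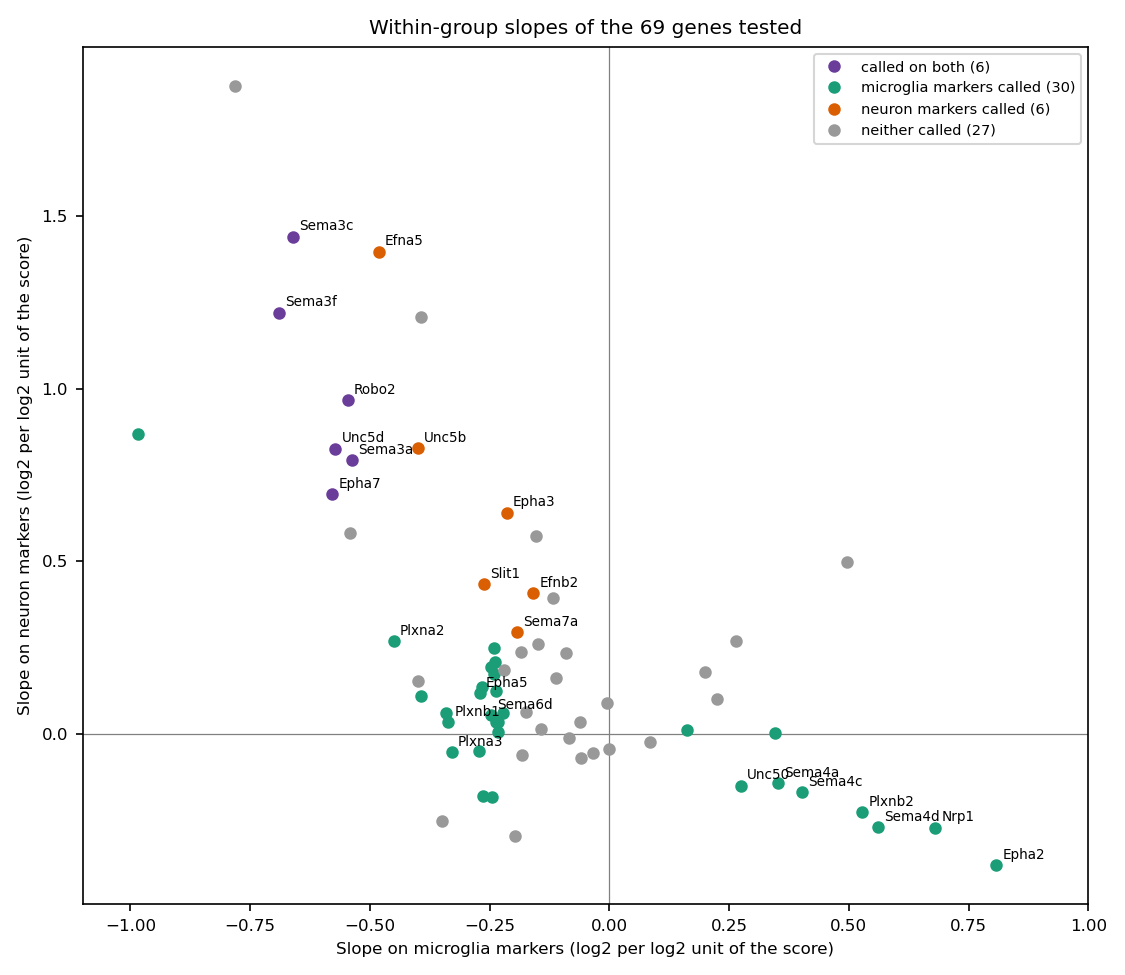
Slope of each of the 69 genes on the microglia score (horizontal) and on the neuron score (vertical), in log2 per log2 unit, coloured by which slopes were called. Of the genes, 6 were called on both, 30 on microglia markers alone, 6 on neuron markers alone and 27 on neither; Plxnb2, Nrp1, Sema4d and Epha2 lie at the right and Sema3c, Efna5 and Sema3f are the highest of the called genes.

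Called on both scores were 6 genes, Sema3c, Sema3f, Sema3a, Robo2, Unc5d and Epha7, higher with neuron markers and lower with microglia markers. The scores were not independent, since 10 of the 20 neuron markers themselves had a called slope on the microglia score, all lower, with a median slope of -0.40 over the 20. On oligodendrocyte markers no guidance gene was called, against 0.0219% of all genes, with 16 of 69 at an unadjusted p under 0.05 and 0 by DESeq2 and limma-voom. On endothelial markers Efnb1 alone was called (slope 0.40, SE 0.0990, adjusted p = 0.0385), or 1.45%, against 0.706% of all genes. That call was lost in 13 of the 38 fits without a library and with RLE scaling or limma-voom, while DESeq2 called 3. The endothelial receptors Ephb4 and Robo4 had slopes of 0.81 (SE 0.252, adjusted p = 0.128) and 1.13 (SE 0.383, adjusted p = 0.164).

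These marker scores bear on the genotype results as follows. At ZT12 the microglia score averaged 8.45 ± 0.382 in KO and 8.51 ± 0.312 in WT (SD, n = 4 and 6), and the neuron score 4.69 ± 0.359 in KO and 4.90 ± 0.470 in WT. OPC markers were lower in KO at that time, at 8.67 ± 0.131 in KO and 8.95 ± 0.127 in WT, and no KO library (8.49 to 8.79) reached the lowest WT library (8.82). Of the 20 OPC markers 16 had a negative estimate, with a median log2 fold change of -0.30, and C1ql1, Neu4, Cspg5 and Cspg4, named after their values were seen, were called lower. Mural and fibroblast markers averaged 2.92 ± 0.417 in KO and 3.41 ± 0.586 in WT, with 12 of 14 negative, a median of -0.89 and 1 call, Myh11. The oligodendrocyte score was 3.51 ± 0.106 in KO and 3.75 ± 0.247 in WT, with 15 of 19 markers negative and 1 call, Myrf. None of these marker genes was called without the 8 low-rRNA libraries. With the low-rRNA set as a covariate C1ql1 alone of them was still called (log2 fold change -0.89, adjusted p = 0.0214). The part of OPC, mural and oligodendrocyte markers in the 6 guidance calls at ZT12 was not tested. With the microglia score as a covariate 8 guidance genes were called lower in KO at ZT12, and with the neuron score 6. Over all genes 1914 were called at ZT12 in either direction with the microglia score, against 1139 without it. At ZT18 the scores differed more: microglia 8.94 ± 0.234 in KO and 8.46 ± 0.695 in WT, neuron 5.47 ± 0.114 in KO and 4.77 ± 0.552 in WT, oligodendrocyte 4.42 ± 0.177 in KO and 3.70 ± 0.0739 in WT, endothelial 3.01 ± 0.213 in KO and 2.37 ± 0.306 in WT, and mural and fibroblast 3.72 ± 0.0836 in KO and 3.13 ± 0.376 in WT (n = 4 each). OPC markers averaged 8.78 ± 0.145 in KO and 8.86 ± 0.119 in WT at ZT18. Sema5a at ZT18 had a log2 fold change of -0.45 (adjusted p = 0.0265) with the microglia score and -0.56 (adjusted p = 0.0453) with the neuron score as a covariate. The part of oligodendrocyte, endothelial and mural markers in that result was not tested.

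Beyond the ligands and receptors, 60 other genes of these pathways were followed, among them collapsin response mediators, adaptors and co-receptors. By edgeR none was called between KO and WT over all times, at ZT0 or at ZT6, with 13, 13 and 2 of 60 at an unadjusted p under 0.05. DESeq2 called 0, 2 and 0 there, and limma-voom 0, 1 and 0. At ZT12, 2 of 60 or 3.33% were called, both lower in KO, against 5.00% of all genes. Cdk5, the kinase downstream of semaphorin signalling, averaged 31.3 ± 3.21 CPM in KO and 41.4 ± 1.86 CPM in WT (log2 fold change -0.40, SE 0.0974, adjusted p = 0.0125), and Gpc1, a heparan sulphate proteoglycan that binds Slit, 109 ± 23.8 CPM in KO and 153 ± 21.9 CPM in WT (-0.49, SE 0.134, adjusted p = 0.0296). Without the 8 low-rRNA libraries neither was called, at -0.39 (adjusted p = 0.263) for Cdk5 and -0.29 (0.546) for Gpc1. At ZT18, where all KO libraries are low-rRNA, 2 of 60 or 3.33% were called, both higher in KO, against 2.14% of all genes. Dpysl2 (CRMP2), an effector of semaphorin 3A, averaged 139 ± 2.52 CPM in KO and 93.6 ± 6.51 CPM in WT (0.57, SE 0.149, adjusted p = 0.0350), and Rgs3, a regulator of G protein signalling that binds ephrin-B, 55.7 ± 5.64 CPM in KO and 28.8 ± 2.63 CPM in WT (0.95, SE 0.245, adjusted p = 0.0349). With the low-rRNA set as a covariate both calls were lost (adjusted p = 0.735 for Dpysl2 and 0.693 for Rgs3). The interaction was called for 5 of 60, or 8.33%, against 9.19% of all genes, namely these 4 and Farp2, and for 0 with that covariate. Time of day was called for 22 of 60 or 36.7% in KO, against 21.9% of all genes, and for 6 of 60 or 10% in WT, against 4.91%. With the low-rRNA set as a covariate these counts were 16 in KO and 5 in WT. In KO, ZT18 and that set cannot be told apart.

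A further list of 21 genes known from OPC migration, among them Pdgfra, Cxcr4, integrins and Ncam1, had 1 call between genotypes. Cspg4, which encodes NG2 and whose promoter drives Cre in this model, fell at ZT12, with 758 ± 83.6 CPM in KO and 1061 ± 162 CPM in WT (log2 fold change -0.49, SE 0.144, adjusted p = 0.0418). That is 4.76% of the 21, against 5.00% of all genes, and the call was lost without the low-rRNA libraries (-0.33, adjusted p = 0.499). Time of day was called for 7 of 21 or 33.3% in KO, against 21.9% of all genes, and for 2 of 21 or 9.52% in WT, against 4.91%. With the low-rRNA set as a covariate these counts were 4 in KO and 2 in WT. The interaction was called for 0 of 21, with 4 at an unadjusted p under 0.05, 1 called by DESeq2 and 0 by limma-voom, against 9.19% of all genes called.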

How the data were processed

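Poly(A) RNA of 38 libraries was sequenced as paired ends. Per the submitters' processing notes, the tools were featureCounts 1.5.0-p3, HISAT2 2.0.5 and fastp, and the build was GRCm38 (mm10). The strand setting of the counting is not stated, nor is the annotation release. The authors deposited 1 table of raw counts per gene, with gene length and coordinates. Samples were grouped by the genotype and time in the labels.

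The counts were fitted in R 4.3.3 with edgeR 4.0.16, as 1 model of 8 groups over 38 libraries after filterByExpr and TMM scaling, leaving 22798 of 54532 genes. Adjusted p-values in the text are edgeR's (quasi-likelihood test, Benjamini-Hochberg over these genes, called under 0.05), except where another tool is named. CPM are TMM-scaled, and RPKM divide them by the gene length of the table. Marker scores are mean log2 CPM with a prior count of 2. DESeq2 1.42.0 and limma 3.58.1 were alternatives, besides other scalings, the low-count filter, covariates and libraries left out. The model code was tested on simulated data.

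The guidance genes, pathway lists and marker lists were chosen with earlier results of these data known. Named are the genes called between genotypes or over time, the 12 smallest p per slope and the 3 highest levels per family; Plxna1, Plxnb3, Slit3, Robo3, Sema3d and other genes that complete a count or family were added after their values were seen. Replicates are separate pools of 2 mice, per the labels. In 76 pairs of libraries within groups the chi-square of counts over 12966 genes was at least 13.02 per degree of freedom, so none was counted as a duplicate. Totals of 19.4 to 39 M counts limit precision for genes near 1 CPM, such as Efna3.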

Additional observations from a re-analysis of the deposited data

Results flagged for a closer look

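The difference between KO and WT changed with the hour in 7 guidance genes by the test of the interaction, with adjusted p-values of 0.00885 for Efna3, 0.00894 for Sema6b, 0.0180 for Ntn1, 0.0242 for Efnb3, 0.0271 for Sema5a, 0.0339 for Sema7a and 0.0433 for Ephb6 (edgeR's quasi-likelihood test). They are 10.1% of the 69 tested, against 9.19% of all genes, and 0 were called with the low-rRNA set as a covariate. The call of Ephb6 was lost in 21 of 38 fits without a library, that of Sema7a in 7 and that of Sema5a in 5.

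Single libraries stood far from the rest of their group in 8 of 168 groups checked, over 21 guidance genes, where chance gives about 1 in 20. Sema4g had 91.5 CPM in KO ZT18 replicate 4, with the next library at 99.0 CPM. In WT ZT0 replicate 1 Sema4g had 111 CPM, with the next at 82.5 CPM. Sema7a had 26.3 CPM in WT ZT6 replicate 5, with the next at 21.1 CPM. Sema4d had 91.6 CPM in WT ZT12 replicate 3, with the next at 122 CPM. Epha5 had 49.9 CPM in WT ZT6 replicate 2, with the next at 65.1 CPM. Epha3 had 6.03 CPM in WT ZT18 replicate 4, with the next at 4.79 CPM. Sema3f had 4.01 CPM in KO ZT6 replicate 4, with the next at 2.11 CPM. It had 6.06 CPM in WT ZT18 replicate 4, with the next at 2.37 CPM.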

How the results depend on the processing

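Of 2819 alternative values for single guidance genes, 2532 kept direction and call, 287 lost the call and 0 reversed. Cell numbers per type and the deleted exons were not measured, and the cause of the changes below was not tested. The interaction, time in KO and ZT18 could not be fitted without the low-rRNA libraries, since no KO ZT18 library is left. The neuron covariate, the low-rRNA covariate of the slopes, and the low-rRNA settings for the pathway and marker genes were chosen after the data were seen.

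Guidance genes called at ZT12 (6) numbered 2 with library size alone, 2 with the replicate block, and 0 with ZT12 libraries alone, without the low-rRNA libraries or with the low-rRNA covariate. At ZT18 (1) there were 4 with ZT18 libraries alone, 0 with the low-rRNA covariate and 0 without the single-sex libraries. For the interaction (7) there were 3 with library size alone, 0 with the low-rRNA covariate and 2 without the single-sex libraries. Time in KO (19) gave 10 with the low-rRNA covariate. Time in WT (3) gave 5 with library size alone, 5 with no filter, 7 by DESeq2, 8 with the microglia covariate, and 1 each without the low-rRNA libraries, without the single-sex libraries and with the neuron covariate. The endothelial slope (1) gave 0 with RLE scaling, 3 by DESeq2 and 0 by limma-voom.

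Over all genes, KO against WT over all times (21) gave 244 by DESeq2, 5 without the low-rRNA libraries, 8 with the low-rRNA covariate, 8 without the single-sex libraries, 54 with the microglia and 13 with the neuron covariate. ZT0 (65) gave 1018 by DESeq2, 467 with the replicate block, 1 with ZT0 libraries alone, 4 without the low-rRNA libraries, 115 with the low-rRNA covariate, 1 without the single-sex libraries, 242 with the microglia and 7 with the neuron covariate. ZT6 (3) gave 1 with ZT6 libraries alone, without the low-rRNA or without the single-sex libraries. ZT12 (1139) gave 726 with the replicate block, 145 with ZT12 libraries alone, 1 without the low-rRNA libraries, 78 with the low-rRNA covariate, 712 without the single-sex libraries and 1914 with the microglia covariate. ZT18 (488) gave 1211 by DESeq2, 746 by limma-voom, 996 with the replicate block, 2393 with ZT18 libraries alone, 2 with the low-rRNA covariate, 1 without the single-sex libraries and 317 with the neuron covariate. The interaction (2096) gave 3166 by DESeq2, 43 with the low-rRNA covariate and 724 without the single-sex libraries. Time in KO (5001) gave 2656 with the low-rRNA covariate, 3034 without the single-sex libraries and 3074 with the neuron covariate. Time in WT (1120) gave 1779 by DESeq2, 724 without the low-rRNA libraries, 487 without the single-sex libraries and 567 with the neuron covariate.

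Leaving out 1 library at a time gave guidance gene counts of 0 to 0 over all times, 0 to 3 at ZT0, 0 to 0 at ZT6, 0 to 8 at ZT12, 0 to 1 at ZT18, 1 to 9 for the interaction, 13 to 21 for time in KO and 1 to 4 for time in WT. The slopes gave 29 to 41 on microglia, 10 to 14 on neuron, 0 to 0 on oligodendrocyte and 0 to 2 on endothelial markers. Over all genes the counts were 10 to 633 over all times, 1 to 2208 at ZT0, 2 to 5 at ZT6, 259 to 1357 at ZT12, 44 to 761 at ZT18, 1049 to 3175 for the interaction, 3632 to 5301 for time in KO and 661 to 1449 for time in WT.

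Correlations of deviations from group means were compared by replicate number, for libraries of different groups. Over 116 pairs with the same number the median was 0.0198, with 16 pairs over 0.1 and a highest of 0.322. Over 511 pairs with other numbers it was -0.000512, with 50 pairs over 0.1 and a highest of 0.287. Whether libraries of the same number belong together was not tested further. Besides the ZT12 count, which fell from 6 to 2, the replicate block moved no count of guidance genes by over 1.5 times.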
